A study of Rattus norvegicus with 54 samples.

Results

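The genes described here are 8 genes tied to neutrophils and to sterile inflammation: the alarmin genes S100a8 and S100a9, the receptor genes Csf3r, Cxcr2 and Trem1, the chemokine genes Cxcl1 and Cxcl2, and the granule and acute-phase gene Lcn2. They were picked out by symbol, and all 8 were found among the 40319 genes counted in each of 54 RNA-seq libraries. The libraries came from the left ventricles of 18 female athymic rats of strain F344/NJcl-rnu/rnu, 8 weeks old at surgery, and were made from polyA RNA of tissue taken 1 week after surgery. There were 3 groups of 6 rats: sham surgery, permanent ligation of the left anterior descending artery with no further treatment (untreated MI), and the same ligation followed by a bi-level cell sheet laid on the ischemic epicardium (MI+Cell Sheet). The sheet was built from human endothelial progenitor cells and smooth muscle cells derived from human mesenchymal stem cells, and reads were mapped to the rat genome alone. Each heart gave 3 libraries, from the infarct zone (anterior wall), the border zone (lateral wall) and the remote zone (septum). Sham hearts had no infarct, and their libraries came from the matching positions. All rats carried the rnu mutation, which removes the thymus and with it most mature T cells but leaves neutrophils and macrophages.

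Neutrophils reach ischemic heart muscle within hours, drawn by the CXC chemokines Cxcl1 and Cxcl2 through the receptor Cxcr2, and their output from the bone marrow is driven by G-CSF through its receptor Csf3r. They carry large cytoplasmic stores of the calcium-binding proteins S100a8 and S100a9, which form calprotectin and, once released, act as alarmins on Toll-like receptors and RAGE. Trem1 amplifies Toll-like receptor signalling in neutrophils and monocytes, and Lcn2 is a secondary granule protein that binds bacterial iron siderophores. None of these genes belongs to neutrophils alone: monocytes and macrophages use Csf3r, Trem1 and the alarmins, and macrophages, endothelium and injured tissue cells can make Cxcl1, Cxcl2 and Lcn2.

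Library totals ran from 12699204 to 23397754 counts. The labels number the samples of a group as technical replicates, whereas the study's methods describe separate animals, and p-values here measure the spread between these samples. All 3 libraries of sham animal 5 stood apart from the other sham hearts: the summed level of 9 macrophage marker genes was 2566, 2584 and 1784 CPM, the level scaled to library size, in its infarct, border and remote positions, against at most 548, 493 and 372 CPM in the other 5 animals. In the same heart the summed level of 6 T cell markers was 531, 627 and 460 CPM, against at most 78.9, 74.4 and 63.1 CPM in the other sham hearts, and cardiomyocyte markers were at 22967, 21014 and 28128 CPM, against at least 63936 CPM in the others. The T cell list includes Cd4 beside Cd3 genes, and the sum does not tell their parts apart. It was therefore not read as a level of T cells. The remote library of cell sheet animal 1 also stood apart, with 20040 CPM of cardiomyocyte markers against at least 43010 CPM in the other 5 cell sheet-treated hearts and 21608 CPM of fibroblast markers against at most 5669 CPM. So did the border library of this animal, with 129 CPM of cardiomyocyte markers against at least 8132 CPM in the other 5. It also had the highest macrophage sum among treated border libraries, 3284 CPM. Several results that rest on these animals are given with and without them. All tissue was sequenced in bulk, so fewer cells of a type and less RNA per cell cannot be told apart.

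Promoter sequences were examined because the chemokine genes and Lcn2 are textbook targets of the transcription factor NF-kB. In the RefSeq promoter table, on rat build GRCr8, 7 of the 8 genes had an entry and S100a8 had none. The letters GGGNNNNTCC, a simple form of the NF-kB site, were searched on both strands in the 250 bases before each start, and 15.2% of all 33469 promoters of that length held a match. Matches were found in 4 of the 7 entries: Cxcl1, Cxcl2, Lcn2 and Cxcr2. The stretches below hold the matches of the chemokine genes and the match of Lcn2 farthest from its start, written 5′ to 3′ on the gene's own strand with every matching base in capitals.
Cxcl1, chr14:17479322-17479441, minus strand, bases 120 to 1 before the start: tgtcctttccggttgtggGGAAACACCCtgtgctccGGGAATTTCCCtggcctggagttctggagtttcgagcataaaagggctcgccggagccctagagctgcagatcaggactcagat
Cxcl2, chr14:17467256-17467375, minus strand, bases 120 to 1 before the start: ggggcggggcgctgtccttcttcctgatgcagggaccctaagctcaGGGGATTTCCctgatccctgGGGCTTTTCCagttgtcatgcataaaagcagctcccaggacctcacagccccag
Lcn2, chr3:36081911-36082030, minus strand, bases 250 to 131 before the start: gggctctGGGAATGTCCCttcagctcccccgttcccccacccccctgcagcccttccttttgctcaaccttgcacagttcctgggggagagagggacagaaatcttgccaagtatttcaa

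In the Cxcl1 stretch, the 11 capitals GGGAATTTCCC are a forward match that begins 84 bases before the start and a reverse match shifted by 1 base, and GGAAACACCC is a reverse match at bases 102 to 93. Cxcl2 held 2 forward matches, GGGGATTTCC at bases 74 to 65 and GGGCTTTTCC at bases 54 to 45. Lcn2 held the overlapping pair shown, which begins at base 243, and a further reverse match, GGACTACCCC, at bases 81 to 72, outside the stretch printed. The match in Cxcr2 was GGACTTCCCC on the reverse strand, at bases 39 to 30. Searched the same way, the TATA box letters TATAAA were found for S100a9 (forward strand, bases 42 to 37) and Trem1 (reverse strand, as TTTATA, bases 7 to 2), and were held by 12.9% of all promoters. The letters AGGAAGT, a form of the site of the myeloid factor PU.1, were found only for Cxcl2 among the 7 entries, on the reverse strand, and were held by 7.08% of all promoters. Csf3r held no match to any of the 3 patterns. These are matches of letters in a window, with no measurement of binding. In the RefSeq gene order, Cxcl1 and Cxcl2 are neighbours on chromosome 14 and S100a8 and S100a9 are neighbours on chromosome 2, with 0 genes listed between the members of either pair.

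Most other genes that define neutrophils were sparse. Of 10 such genes, Ltf (lactoferrin) was at 0 in 53 of the 54 libraries, and the receptor genes Cxcr1, Fpr1 and Cd177 were at 0 in 36, 37 and 31 libraries and never passed 9 counts. Mpo, which encodes myeloperoxidase of the primary granules, was at 0 in 40 libraries, but in border tissue of treated hearts its median was 6.64 CPM, with 1 of 6 libraries at 0. Camp and Ngp, which encode secondary granule proteins, had medians of 2 and 3 counts. Mmp8, the neutrophil collagenase, reached at most 209 counts, and Mcemp1, a myeloid surface protein gene, reached at most 1440 counts, both in the border zone of MI animal 2. These last 2 genes, singled out after their values were seen, were higher in MI than sham hearts in the infarct zone, Mmp8 by 4.36 (adjusted p = 0.000165) and Mcemp1 by 4.17 (adjusted p = 0.000623) on the log2 scale. Both passed the filter on low counts there mainly through the MI libraries. Mmp8 had 21 to 99 counts in MI and 0 to 2 in sham hearts, and Mcemp1 had 48 to 339 and 0 to 6. Their tests thus depended on their high MI levels. The 8 genes were therefore read as transcripts with neutrophil functions in mixed tissue, and no number of neutrophils was taken from them.

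The comparison of untreated MI with sham hearts asked how ligation changed these genes in each zone. S100a8 and S100a9 were higher in MI hearts in all 3 zones, with the largest estimates in the border zone. In the infarct zone the lowest, median and highest S100a8 levels were 1.54, 4.40 and 15.1 CPM in MI hearts and 0.707, 1.28 and 2.69 CPM in sham hearts, and 4 MI hearts lay above every sham heart. The log2 fold change was 2.11 (SE 0.60, adjusted p = 0.0121). Border levels were 1.68, 11.7 and 76.5 CPM in MI hearts against 0.334, 0.978 and 2.38 CPM in sham hearts, a log2 fold change of 4.47 (SE 1.06, adjusted p = 0.00759). Again 4 MI hearts lay above all sham hearts, and the MI hearts spread widely among themselves. Remote levels were 1.08, 4.74 and 14.3 CPM against 0.200, 0.374 and 1.29 CPM, a log2 fold change of 3.44 (SE 0.68, adjusted p = 0.00379).

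S100a9, the partner of S100a8 in calprotectin, was also higher in all 3 zones. Infarct levels were 2.47, 7.92 and 33.8 CPM in MI hearts and 1.49, 3.66 and 6.47 CPM in sham hearts (log2 fold change 1.89, SE 0.61, adjusted p = 0.0228), with 3 MI hearts above the sham range. The MI border levels of 3.25, 35.9 and 199.6 CPM compared with 0.667, 2.93 and 5.95 CPM in sham hearts (log2 fold change 4.27, SE 1.00, adjusted p = 0.0072), and 5 MI hearts lay above all sham hearts. For the remote zone, 3.63, 12.7 and 38.0 CPM compared with 1.03, 1.71 and 4.56 CPM (log2 fold change 2.80, SE 0.58, adjusted p = 0.00463). The groups overlapped in each zone for both alarmin genes, at the low end of the MI hearts. Without MI animal 1 the infarct zone call for S100a9 was lost (adjusted p = 0.0548).

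Among the 8 genes, Lcn2 alone had MI and sham levels that did not overlap in any zone. The share of all genes with no overlap was not counted, for this or for the other comparisons. It was at 14.6, 23.9 and 36.5 CPM in the infarct zone of MI hearts and 3.43, 5.51 and 6.99 CPM in sham hearts, a log2 fold change of 2.20 (SE 0.24, adjusted p = 7.58e-05). Border levels of Lcn2 were 10.1, 46.7 and 145.7 CPM against 3.53, 4.65 and 8.02 CPM (log2 fold change 3.56, SE 0.66, adjusted p = 0.00248). Remote levels were 14.2, 23.9 and 36.9 CPM against 4.06, 6.49 and 8.18 CPM (log2 fold change 1.97, SE 0.28, adjusted p = 0.000915). The MI levels in the infarct and remote zones thus covered nearly the same range. Every fit that left out 1 heart kept Lcn2 past the threshold in all 3 zones, 12 fits to a zone.

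Of the receptor genes, Csf3r was higher in MI hearts in all 3 zones. Its levels in the infarct zone were 12.9, 16.2 and 37.3 CPM in MI hearts and 0.451, 1.57 and 10.8 CPM in sham hearts, which did not overlap (log2 fold change 2.81, SE 0.67, adjusted p = 0.00532). They were 6.65, 29.7 and 133.6 CPM against 0.791, 1.61 and 11.6 CPM in the border zone (log2 fold change 3.73, SE 0.91, adjusted p = 0.0083), and in the remote zone 5.19, 7.53 and 20.0 CPM against 0.886, 1.42 and 9.42 CPM (log2 fold change 1.86, SE 0.60, adjusted p = 0.0378). The highest sham value in each zone belonged to sham animal 5. Without that animal the log2 fold changes were 4.05 (infarct), 4.89 (border) and 2.91 (remote). The remote zone call was the least stable, standing in 4 of 12 fits that left out 1 heart, with adjusted p up to 0.0831 without MI animal 1.

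Trem1 passed the test in the border zone (log2 fold change 2.85, SE 0.95, adjusted p = 0.0314), where it was at 4.26, 11.6 and 50.4 CPM in MI hearts and 0.312, 0.773 and 11.8 CPM in sham hearts. For infarct tissue, 6.79, 8.22 and 15.9 CPM compared with 0.461, 1.17 and 12.6 CPM (log2 fold change 1.75, SE 0.72, adjusted p = 0.0611), and in the remote zone 2.49, 5.96 and 16.6 CPM compared with 0.405, 0.851 and 9.19 CPM (log2 fold change 1.84, SE 0.77, adjusted p = 0.0965). Every MI heart lay above the other 5 sham hearts in each of these zones, and the overlap came from sham animal 5. Without it, Trem1 passed the test in all 3 zones, with log2 fold changes of 3.29, 4.73 and 3.45. The border zone call stood in 5 of 12 fits that left out 1 heart, with adjusted p up to 0.079 without MI animal 2.

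Cxcr2 was sparse, with 0 counts in some sham libraries and at most 17.3 CPM, in the border zone of MI animal 2. Its log2 fold changes of 0.87 (SE 0.76, adjusted p = 0.355, infarct) and 2.68 (SE 1.09, adjusted p = 0.0662, border) missed the threshold. The gene fell under the filter on low counts for the remote zone. There its levels were 0.190, 1.62 and 5.06 CPM in MI hearts and 0, 0.141 and 1.03 CPM in sham hearts, and a fit with no filter over 27353 genes gave a log2 fold change of 2.57 (adjusted p = 0.0637).

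The chemokine genes had estimates of unequal size. Cxcl2 (MIP-2) was at 0.651, 12.3 and 179.1 CPM in the border zone of MI hearts and 0.0756, 0.191 and 0.434 CPM in sham hearts, with no overlap (log2 fold change 7.52, SE 1.48, adjusted p = 0.00335). The sham border libraries held between 1 and 7 counts of Cxcl2, so the size of this fold change is uncertain. For infarct tissue, 0.275, 1.54 and 5.89 CPM in MI hearts compared with 0.075, 0.336 and 0.996 CPM (log2 fold change 2.42, SE 0.73, adjusted p = 0.0162). Cxcl2 also fell under the filter for the remote zone. The MI levels there of 0.179, 6.23 and 81.2 CPM compared with 0.0708, 0.159 and 0.675 CPM in sham hearts, and the fit with no filter gave a log2 fold change of 5.98 (adjusted p = 0.00735). Cxcl2 thus had the widest spread among MI hearts of the 8 genes in the border and remote zones, by the SD of log2 levels (3.08 and 3.13).

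Cxcl1 (KC), beside Cxcl2 on the chromosome, had smaller estimates. It was at 1.87, 7.41 and 33.9 CPM in the border zone of MI hearts and 1.44, 2.37 and 4.06 CPM in sham hearts (log2 fold change 2.08, SE 0.63, adjusted p = 0.0205). Without MI animal 2 this call was lost (adjusted p = 0.0529). Its infarct levels were 2.98, 5.54 and 8.43 CPM against 1.35, 2.75 and 5.72 CPM (log2 fold change 0.82, SE 0.36, adjusted p = 0.0754). Its remote levels were 1.48, 3.31 and 5.44 CPM against 1.03, 1.99 and 2.26 CPM (log2 fold change 0.82, SE 0.34, adjusted p = 0.0961).

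**Figure D1:**
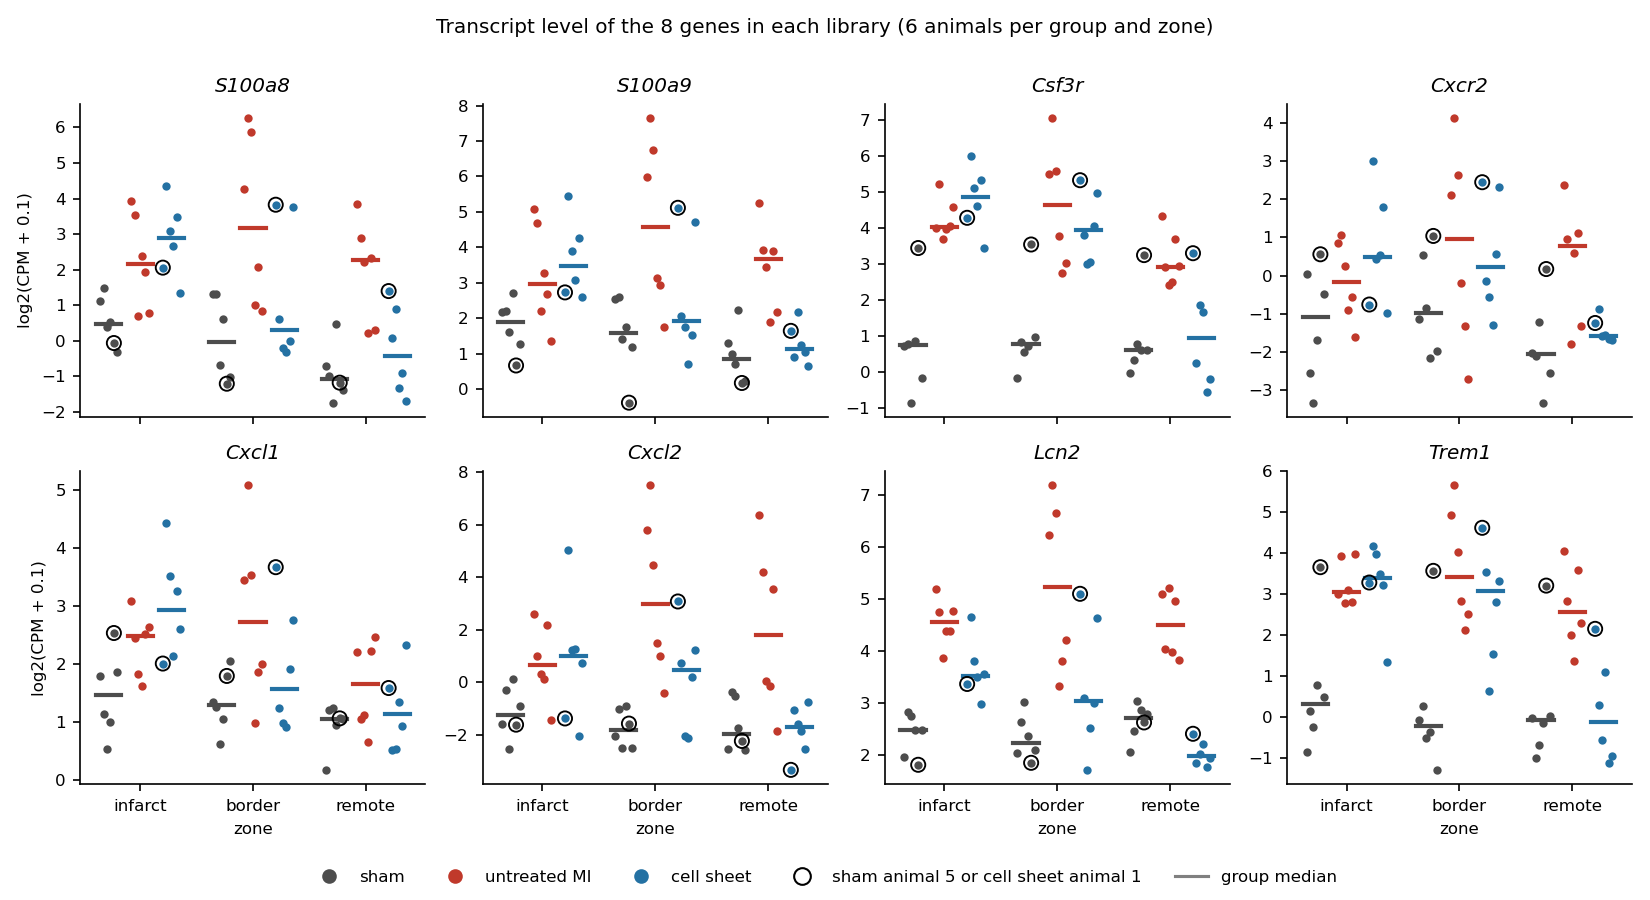
Level of each of the 8 genes as log2(CPM + 0.1) in all 54 libraries, with 1 point per heart, the bar at the median of 6 hearts, and the 3 treatments grouped by zone; open circles are sham animal 5 and cell sheet animal 1. Lcn2 of MI hearts lies above sham in each zone, and in the remote zone Lcn2 of cell sheet-treated hearts lies between 3.32 and 5.24 CPM, with 4 of 6 hearts below the lowest sham heart.

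In counts, 5 of the 8 genes were higher in MI hearts in the infarct zone, where 49.9% of all genes tested were called and 22.7% were called higher. Border tissue had 7 of the 8 higher, against 41.7% called and 18.4% called higher among all genes. In the remote zone 6 of the 8 passed the filter and 4 of these were higher, against 25.8% called and 11.7% called higher. S100a8 in the remote zone passed the filter mainly through the MI libraries (16 to 186 counts, sham 3 to 19). The same held for Cxcl2 in the infarct zone (6 to 111 counts, sham 1 to 14) and border zone (12 to 4060, sham 1 to 7). The place of these genes in the counts thus depended on their high MI levels. None of the 8 was called lower in any zone. The median log2 fold change of the 8 genes was 2.00 in the infarct and 3.65 in the border zone, where the median over all genes tested was -0.02 in both. Without sham animal 5 the counts were 7 of 8, 8 of 8 and 6 of 7 in the 3 zones, where 64.8%, 60.8% and 46.5% of all genes were called. Macrophage and cardiomyocyte markers moved with these results: 5, 6 and 3 of 9 macrophage markers were higher and 8, 8 and 4 of 8 cardiomyocyte markers were lower in the infarct, border and remote zones of MI hearts. The summed macrophage markers were at 1300 to 2296, 1097 to 2713 and 590 to 1254 CPM in MI hearts, and at most 548, 493 and 372 CPM in sham hearts other than animal 5. Their part in the results was not tested.

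The 8 genes did not move together in sham animal 5, whose summed levels of the macrophage, T cell and cardiomyocyte lists stood apart from those of the other sham hearts. Its Csf3r levels of 10.8, 11.6 and 9.42 CPM and its Trem1 levels of 12.6, 11.8 and 9.19 CPM were the highest among sham hearts. So were its sparse Cxcr2 levels of 1.37, 1.95 and 1.03 CPM, and its Cxcl1 level of 5.72 CPM at the infarct position. Its S100a9 levels of 1.49, 0.667 and 1.03 CPM were the lowest among sham hearts in all 3 positions, and its Lcn2 was the lowest in the infarct and border positions. In the plot of gene levels against macrophage markers, the 3 libraries of this heart sit among MI hearts on the macrophage axis, with Csf3r and Trem1 above and S100a8 and Lcn2 within or below the range of the other sham hearts. Which of these differences between hearts goes with the Csf3r, Trem1 and Cxcr2 levels was not tested.

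**Figure D2:**
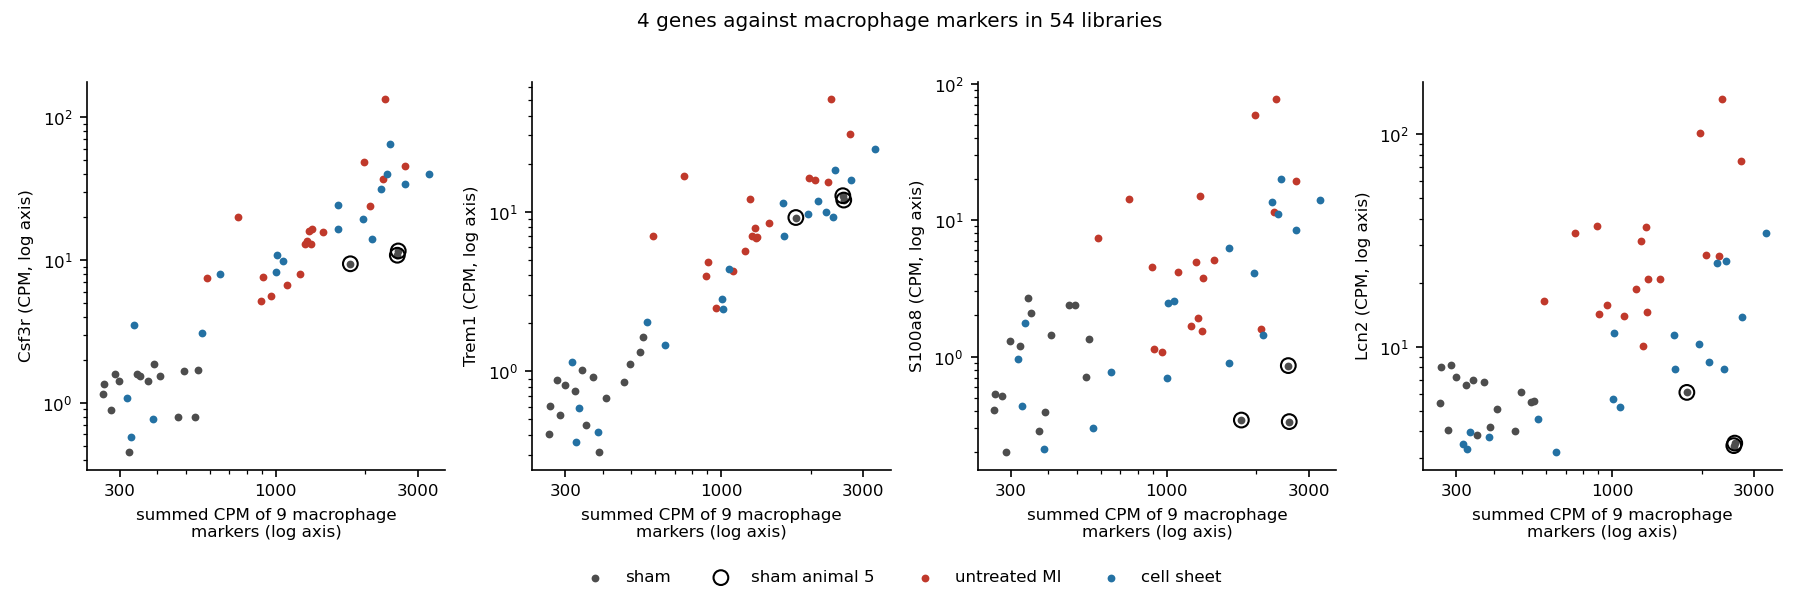
Csf3r, Trem1, S100a8 and Lcn2 (CPM, log axis) against the summed CPM of 9 macrophage marker genes (log axis) in 54 libraries, with circles on the 3 libraries of sham animal 5. At 1784 to 2584 CPM of macrophage markers, this sham heart had 9.19 to 12.6 CPM of Trem1 and 0.334 to 0.858 CPM of S100a8.

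The comparison of cell sheet-treated with untreated MI hearts asked whether the transplant changed these genes. Most of the calls were in the remote zone. Lcn2 was at 3.32, 3.88 and 5.24 CPM in cell sheet-treated hearts against 14.2, 23.9 and 36.9 CPM in untreated MI hearts, with no overlap, and fell by 2.62 on the log2 scale (SE 0.27, adjusted p = 0.000991). S100a9 was at 1.47, 2.11 and 4.46 CPM against 3.63, 12.7 and 38.0 CPM and fell by 2.53 (SE 0.53, adjusted p = 0.0113), with 5 of 6 treated hearts below every untreated heart. S100a8 was at 0.210, 0.694 and 2.54 CPM against 1.08, 4.74 and 14.3 CPM and fell by 2.39 (SE 0.71, adjusted p = 0.0369), with 4 treated hearts below every untreated heart. For S100a8 the other 2 treated hearts overlapped the low end of the untreated range.

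Trem1 also fell in the remote zone, by 2.37 (SE 0.63, adjusted p = 0.0258), from 2.49, 5.96 and 16.6 CPM in untreated to 0.361, 0.866 and 4.37 CPM in treated hearts. Csf3r was at 5.19, 7.53 and 20.0 CPM in untreated and 0.578, 2.07 and 9.77 CPM in treated hearts, with a log2 fold change of -1.63 (SE 0.62, adjusted p = 0.0808). The highest treated values of Csf3r and Trem1 were both from animal 1, and without it Csf3r passed the test (log2 fold change -2.43, adjusted p = 0.0021). Cxcl1 was at 1.33, 2.13 and 4.96 CPM in treated hearts and had a log2 fold change of -0.45 (SE 0.40, adjusted p = 0.441). Cxcr2 and Cxcl2 fell under the filter in this zone. In treated hearts Cxcr2 was at 0.210, 0.237 and 0.445 CPM and Cxcl2 at 0, 0.207 and 0.489 CPM, and the fit with no filter over 27451 genes gave log2 fold changes of -2.65 (adjusted p = 0.0269) and -6.36 (adjusted p = 0.0127).

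Of the 6 genes tested in the remote zone 4 were thus lower, where 17.1% of all genes tested were called and 6.79% were called lower. S100a8 passed the filter there mainly through the untreated libraries (16 to 186 counts, treated 3 to 47). Its place in this count thus depended on its high untreated levels. Lcn2 and S100a9 passed the test in 12 of 12 fits that left out 1 heart, Trem1 in 7 of 12 and S100a8 in 3 of 12. Without cell sheet animal 1, the heart that stood apart, 6 of 7 genes tested were called, where 41.6% of all genes were called. In the same zone C1qb and C1qc were lower among the 9 macrophage markers, and the summed markers were at 316 to 564 CPM in 5 treated hearts and 1061 CPM in animal 1, against 590 to 1254 CPM in untreated hearts. Among cardiomyocyte markers 1 of 8, Ryr2, was higher in treated hearts, and among fibroblast markers 1 of 6, Dcn, was lower. The median summed cardiomyocyte level was 55119 CPM in treated and 37897 CPM in untreated hearts, and the median summed fibroblast level was 2835 and 7858 CPM. The part of these markers in the results was not tested.

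In the border zone all 8 estimates were below 0 and 1 gene passed the test, where 18% of all genes tested were called and 9.48% were called lower. Cxcl2 was at 0.131, 1.31 and 8.33 CPM in treated and 0.651, 12.3 and 179.1 CPM in untreated hearts and fell by 4.24 on the log2 scale (SE 1.36, adjusted p = 0.0490). This call stood in 4 of 12 fits that left out 1 heart, with adjusted p from 0.0280 to 0.130, the highest without MI animal 2. Without cell sheet animal 1 the log2 fold change of Cxcl2 was -5.39, and 2 of the 8 genes were called, where 18.8% of all genes were called. Lcn2 was at 3.20, 8.2 and 34.3 CPM in treated and 10.1, 46.7 and 145.7 CPM in untreated hearts, with a log2 fold change of -2.10 (SE 0.77, adjusted p = 0.0778). S100a8, at 0.699, 1.16 and 14.1 CPM in treated hearts, had a log2 fold change of -2.36 (SE 1.13, adjusted p = 0.170). S100a9, at 1.53, 3.68 and 34.5 CPM, had a log2 fold change of -2.42 (SE 1.08, adjusted p = 0.142). The lowest treated hearts went below the untreated range in 4 hearts for S100a8 and Lcn2 and in 2 for S100a9, and the highest treated hearts lay within it.

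The receptor genes and Cxcl1 had estimates nearer 0 in the border zone. Csf3r was at 7.96, 15.3 and 40.3 CPM in treated hearts (log2 fold change -1.10, SE 0.71, adjusted p = 0.315) and Trem1 at 1.46, 8.47 and 24.6 CPM (log2 fold change -0.97, SE 0.72, adjusted p = 0.386). Cxcr2 was at 0.306, 1.10 and 5.34 CPM (log2 fold change -1.11, SE 1.04, adjusted p = 0.501). Cxcl1 was at 1.79, 2.98 and 12.7 CPM (log2 fold change -1.17, SE 0.71, adjusted p = 0.285). Macrophage markers were called in 0 of 9 and cardiomyocyte markers in 0 of 8 genes in this zone by edgeR, and the summed macrophage markers were at 651 to 3284 CPM in treated and 1097 to 2713 CPM in untreated hearts.

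In the infarct zone, edgeR called 0 of the 8 genes, with 1 at an unadjusted p under 0.05, and DESeq2 called 0. Over all 16196 genes tested the same comparison called 0% with edgeR, with 1341 genes at an unadjusted p under 0.05, and 85 genes with DESeq2. The gene with the unadjusted p was Lcn2, at 7.85, 11.5 and 25.3 CPM in treated and 14.6, 23.9 and 36.5 CPM in untreated hearts, where 5 of 6 treated hearts lay below every untreated heart (log2 fold change -0.87, SE 0.28, adjusted p = 0.484). The other 7 estimates were above 0, from 0.12 (SE 0.39) for Trem1 to 1.41 (SE 1.12) for Cxcl2. Csf3r was at 10.9, 29.4 and 64.7 CPM in treated and 12.9, 16.2 and 37.3 CPM in untreated hearts (log2 fold change 0.66, SE 0.39, adjusted p = 0.685). Without cell sheet animal 2, the highest treated heart for all 8 genes, the estimates for S100a9, Cxcl2 and Trem1 turned to -0.32, -0.90 and -0.07.

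**Figure D3:**
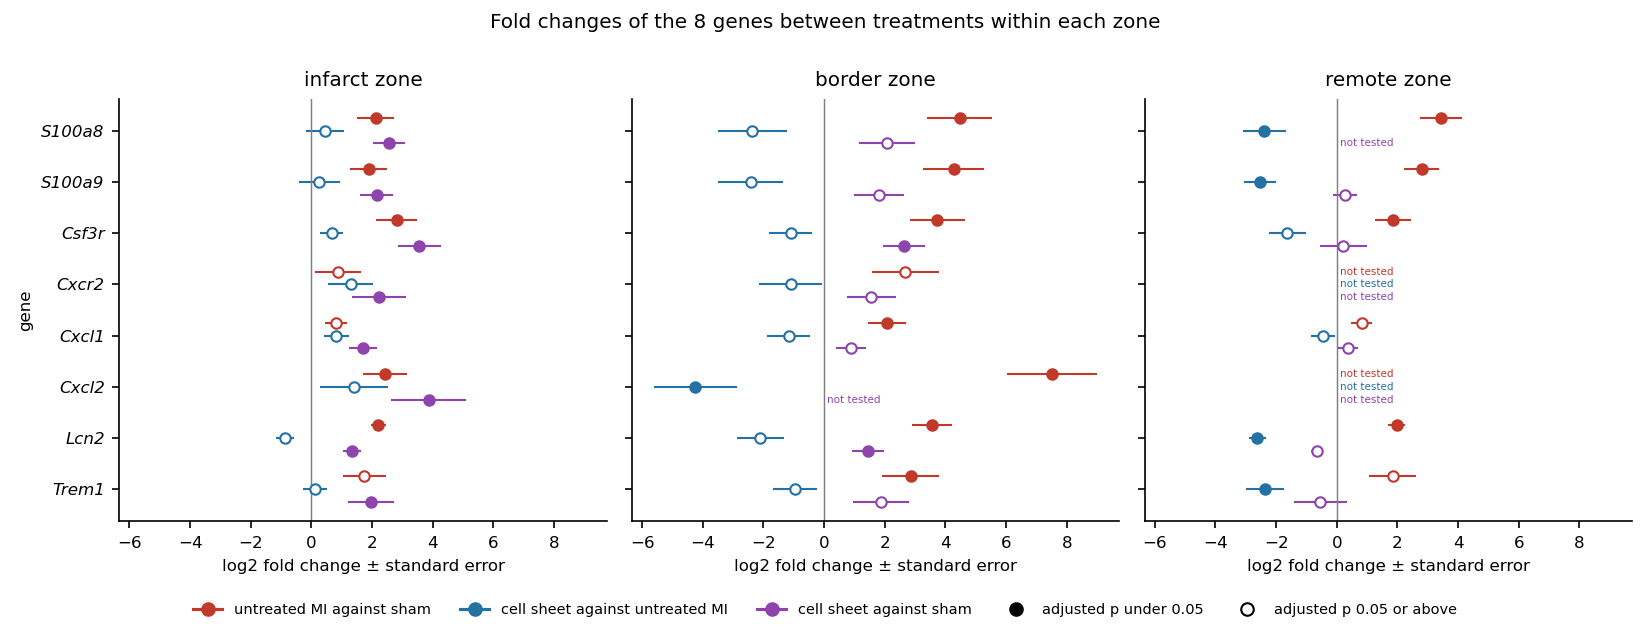
Log2 fold change of each gene with its SE in the infarct, border and remote zones for MI against sham, cell sheet against MI and cell sheet against sham (edgeR fits, n = 6 hearts a group); filled points had an adjusted p under 0.05, and genes under the filter are marked as not tested. MI against sham lies above 0 throughout, and cell sheet against MI changes from mostly above 0 in the infarct zone to below 0 in the remote zone, where Lcn2 is at -2.62.

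Whether the cell sheet difference itself varied with the zone was tested in a joint fit of both zones, with each animal as a block. The difference in the infarct zone minus that in the remote zone was above 0 for all 8 genes, from 1.06 (SE 0.62) for Cxcl1 to 5.42 (SE 1.12) for Cxcl2 on the log2 scale. By edgeR 0 of the 8 passed, with 7 at an unadjusted p under 0.05 and adjusted p from 0.0999 to 0.28, while DESeq2 called 6. Over all 16902 genes edgeR called 0%, with 4190 at an unadjusted p under 0.05, and DESeq2 called 1802. Without cell sheet animal 1 edgeR called 7 of the 8 genes, all except Cxcl1, where 11.8% of all genes were called, so the count of this test rested on that heart. The difference in the border zone minus that in the remote zone was called for 0 of the 8 by edgeR, with 0 at an unadjusted p under 0.05, and for 0 by DESeq2. Over all genes that test called 0% with edgeR.

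The comparison of cell sheet-treated with sham hearts shares its libraries with both comparisons above. In the infarct zone all 8 genes were higher in treated hearts, where 57.9% of all genes tested were called and 28.6% were called higher. Cxcl2 (3 to 752 counts, sham 1 to 14) and Cxcr2 (7 to 184, sham 0 to 24) passed the filter mainly through the treated libraries. Their place in this count thus depended on their high treated levels. The log2 fold changes were 2.56 (SE 0.52, adjusted p = 0.0017) for S100a8, 2.16 (SE 0.54, adjusted p = 0.0057) for S100a9, and 3.56 (SE 0.71, adjusted p = 0.0015) for Csf3r. They were 1.97 (SE 0.75, adjusted p = 0.0404) for Trem1, 2.22 (SE 0.90, adjusted p = 0.0495) for Cxcr2, 1.69 (SE 0.46, adjusted p = 0.0089) for Cxcl1 and 3.86 (SE 1.24, adjusted p = 0.019) for Cxcl2. The treated levels in this zone were 2.46, 7.33 and 20.1 CPM for S100a8, 5.92, 11.5 and 43.4 CPM for S100a9, 2.46, 10.5 and 18.1 CPM for Trem1, and 0.145, 1.91 and 32.4 CPM for Cxcl2. The largest value of each came from animal 2. Csf3r and Lcn2 (log2 fold change 1.34, SE 0.30, adjusted p = 0.0028) did not overlap between these groups. Without cell sheet animal 2 the count was 5, where 51.4% of all genes were called. The calls of Cxcr2 and Trem1 stood in 3 and 2 of 12 fits that left out 1 heart. For border tissue 2 of the 7 genes tested were higher, Csf3r by 2.63 (SE 0.68, adjusted p = 0.0087) and Lcn2 by 1.44 (SE 0.52, adjusted p = 0.0425), where 43.6% of all genes were called and 20.4% were called higher. With sham animal 5 left out Csf3r, Cxcr2 and Trem1 were called there and Lcn2 was not (adjusted p = 0.0564), where 61.6% of all genes were called. Cxcl2 fell under the filter in this comparison, and the fit with no filter gave a log2 fold change of 3.26 (adjusted p = 0.0209).

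In the remote zone, edgeR called 0 of the 5 genes tested in cell sheet-treated against sham hearts, with 1 at an unadjusted p under 0.05, and DESeq2 called 0. Of all 15157 genes 0.0066% were called by edgeR, with 1520 at an unadjusted p under 0.05, and 220 genes were called by DESeq2. The log2 fold changes were 0.26 (SE 0.39) for S100a9, 0.22 (SE 0.78) for Csf3r, 0.37 (SE 0.34) for Cxcl1, -0.54 (SE 0.87) for Trem1 and -0.65 (SE 0.20, adjusted p = 0.339) for Lcn2. For Lcn2 4 of 6 treated hearts lay below the lowest sham heart. The estimates for Csf3r and Trem1 changed sign when a heart that stood apart was left out: Csf3r was at -0.61 without cell sheet animal 1 and Trem1 at 1.09 without sham animal 5. The sizes of the standard errors leave differences of more than 1 log2 unit possible for the receptor genes.

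Zones were compared with the animal as a block, with libraries of the same number taken as the same heart. In cell sheet-treated hearts, each of the 8 genes was higher in the infarct than in the remote zone in 6 of 6 animals. The 6 genes tested all passed, where 62.8% of all genes were called and 31.5% were called higher. S100a8 passed the filter there mainly through the infarct libraries (42 to 467 counts, remote 3 to 47). Without animal 1, 6 of 6 genes tested were called, where 63.8% of all genes were called. The differences were 3.71 (SE 0.72) for Csf3r, 3.21 (SE 0.61) for S100a8, 3.18 (SE 0.55) for Trem1, 2.39 (SE 0.47) for S100a9, 1.79 (SE 0.58) for Cxcl1 and 1.63 (SE 0.26) for Lcn2, with adjusted p from 0.00325 to 0.0292. The call of Cxcl1 stood in 3 of 6 fits that left out 1 heart, with adjusted p up to 0.0819. In the border against the remote zone 3 of the 6 were higher, namely Csf3r (2.89, SE 0.61), Trem1 (2.69, SE 0.56) and Lcn2 (1.39, SE 0.43), where 56.4% of all genes were called and 29.2% were called higher. Without animal 1, 2 of 6 genes tested were called in this contrast, where 57.2% of all genes were called.

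Fewer of the genes passed the same contrast in untreated MI hearts. Csf3r was higher in the infarct than in the remote zone by 1.14 (SE 0.33, adjusted p = 0.0282) and Cxcl1 by 0.75 (SE 0.21, adjusted p = 0.0257), in 5 and 6 of 6 animals. These were 2 of 8 genes, where 36.4% of all genes were called and 18.3% were called higher. Each call stood in 2 of 6 fits that left out 1 heart, with adjusted p up to 0.082 for Csf3r and 0.0702 for Cxcl1. Lcn2 differed by 0.05 (SE 0.28) and S100a9 by -0.22 (SE 0.36), and Cxcl2 by -1.70 (SE 0.65, adjusted p = 0.069). In the border against the remote zone edgeR called 0 of 8, with 1 at an unadjusted p under 0.05, and DESeq2 called 2, S100a8 and Csf3r. Over all genes that comparison called 0% with edgeR, with 5943 at an unadjusted p under 0.05, and 4651 with DESeq2.

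In sham hearts S100a8 and S100a9 differed between positions with no ligation. S100a8 was higher at the infarct position than at the septum by 1.58 (SE 0.39, adjusted p = 0.00612) and S100a9 by 0.87 (SE 0.21, adjusted p = 0.00552), each in 6 of 6 animals. These were 2 of the 6 genes tested, where 32.4% of all genes were called and 15.9% were called higher. S100a8 passed the filter there mainly through the infarct position (8 to 37 counts, septum 3 to 19), so its place in this count depended on its higher levels. Without sham animal 4, 1 of 5 genes tested was called, where 25.6% of all genes were called. Lcn2 was at -0.26 (SE 0.16) in this contrast, lower at the infarct position in 5 of 6 animals. The MI difference in the infarct zone minus that in the remote zone was therefore also tested: edgeR called 0 of 8, with 4 at an unadjusted p under 0.05, and DESeq2 called 2, where 28.9% of all genes were called by edgeR. The estimates were -1.35 (SE 0.62) for S100a8, -1.08 (SE 0.44) for S100a9, -2.32 (SE 1.04) for Cxcl2 and 1.17 (SE 0.49) for Csf3r.

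**Figure D4:**
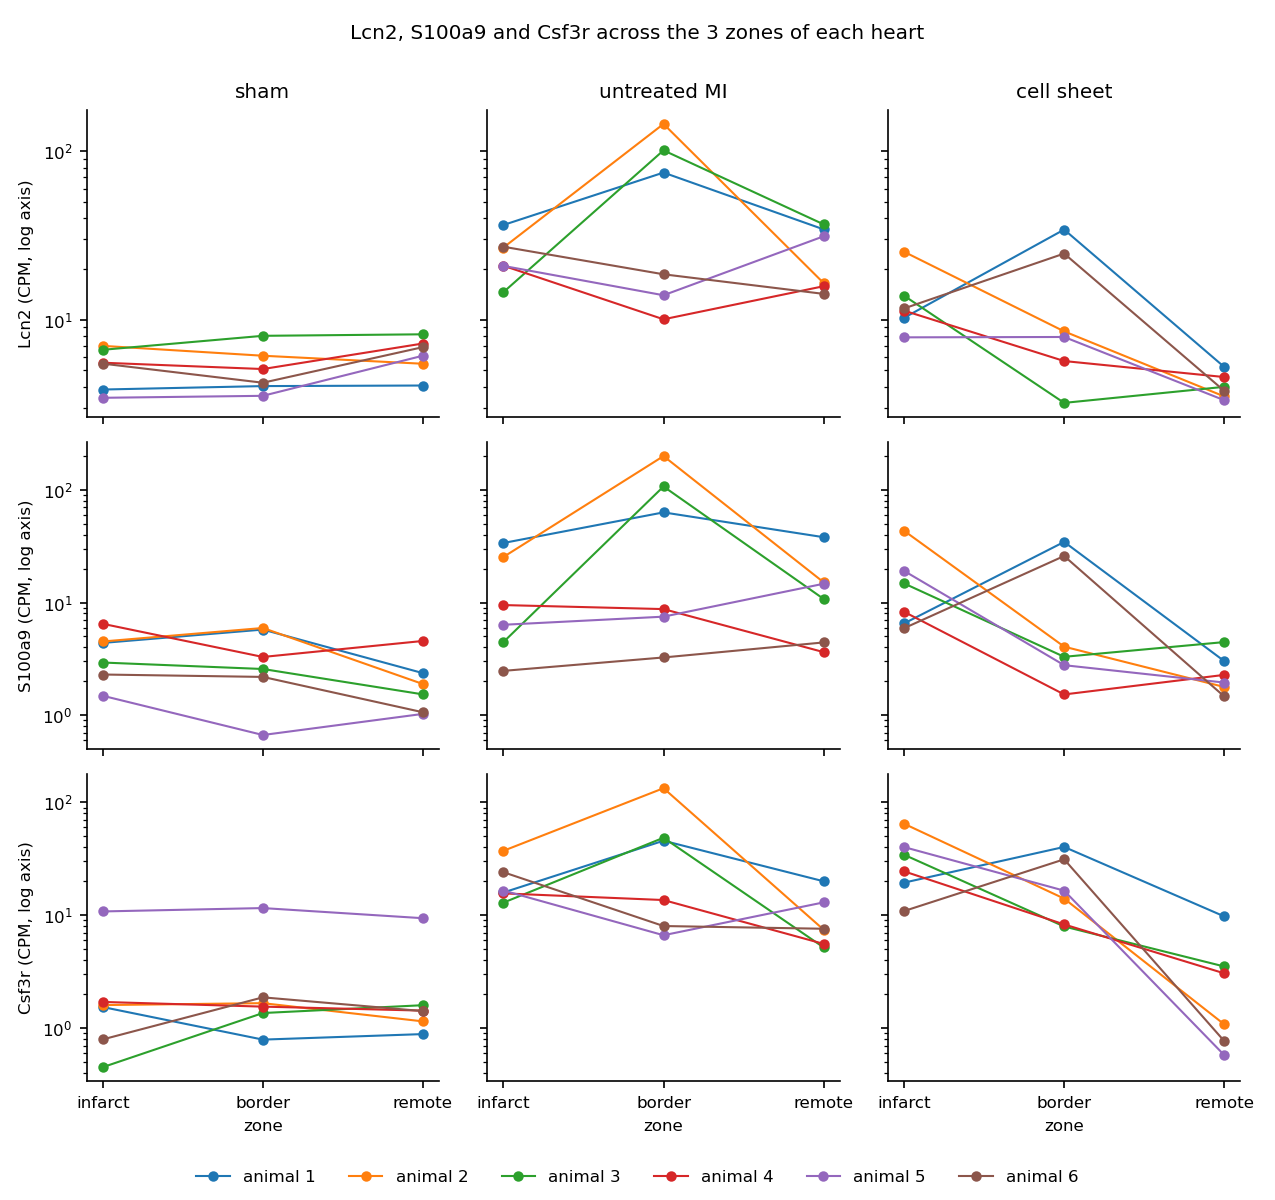
Lcn2, S100a9 and Csf3r (CPM, log axis) in the infarct, border and remote zones, with 1 line per heart and a panel for each treatment. Lines of cell sheet-treated hearts end lower in the remote than in the infarct zone for all 3 genes, while Lcn2 of MI hearts ends between 14.2 and 36.9 CPM. Some treated lines peak in the border zone, as for Lcn2 of animal 1 (10.3, 34.3 and 5.24 CPM).

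In some groups the 8 genes were high in the same hearts. Among MI border libraries, animals 1, 2 and 3 held the 3 highest values of all 8 genes, and animal 2 held the highest of each. These hearts had 2713, 2336 and 1978 CPM of macrophage markers, against 1097 to 1275 CPM in the other 3, and 31930, 4625 and 6163 CPM of cardiomyocyte markers. Among treated border libraries, animal 1 held the highest value of all 8 genes, with 129 CPM of cardiomyocyte and 3284 CPM of macrophage markers. Among treated infarct libraries, animal 2 was the highest for all 8 genes and animal 6 the lowest for 5. Other groups had no such order: at the infarct position of sham hearts, animal 5 was the highest for 4 genes and the lowest for 2, and at the border position it was the highest for 3 and the lowest for 3. The part of tissue makeup in these ranks was not tested.

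The order of hearts was summarised with Spearman's rho of log2(CPM + 0.1) after subtracting group means, over the 36 libraries of MI and cell sheet-treated hearts. The libraries come 3 to a heart and share the makeup of each tissue piece, so rho is given as a description. S100a8 and S100a9 had the highest rho of any pair, 0.955, followed over these libraries by values down to 0.548 for Csf3r and Cxcl2. Csf3r and Trem1 had 0.864. Over all 54 libraries the values were lower for several pairs, with 0.931 for S100a8 and S100a9, 0.784 for Csf3r and Trem1, 0.426 for S100a9 and Csf3r, and 0.343 for S100a9 and Trem1. Over the 36 libraries Il1b, the gene for interleukin-1β, had 0.711 (Lcn2) to 0.858 (Cxcr2) with the 8 genes, and over all 54 it had 0.470 with S100a9. Cd68, a macrophage gene, had over the 36 libraries 0.642 with Csf3r and 0.644 with Trem1 but 0.232 with S100a9 and 0.048 with Cxcl2.

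**Figure D5:**
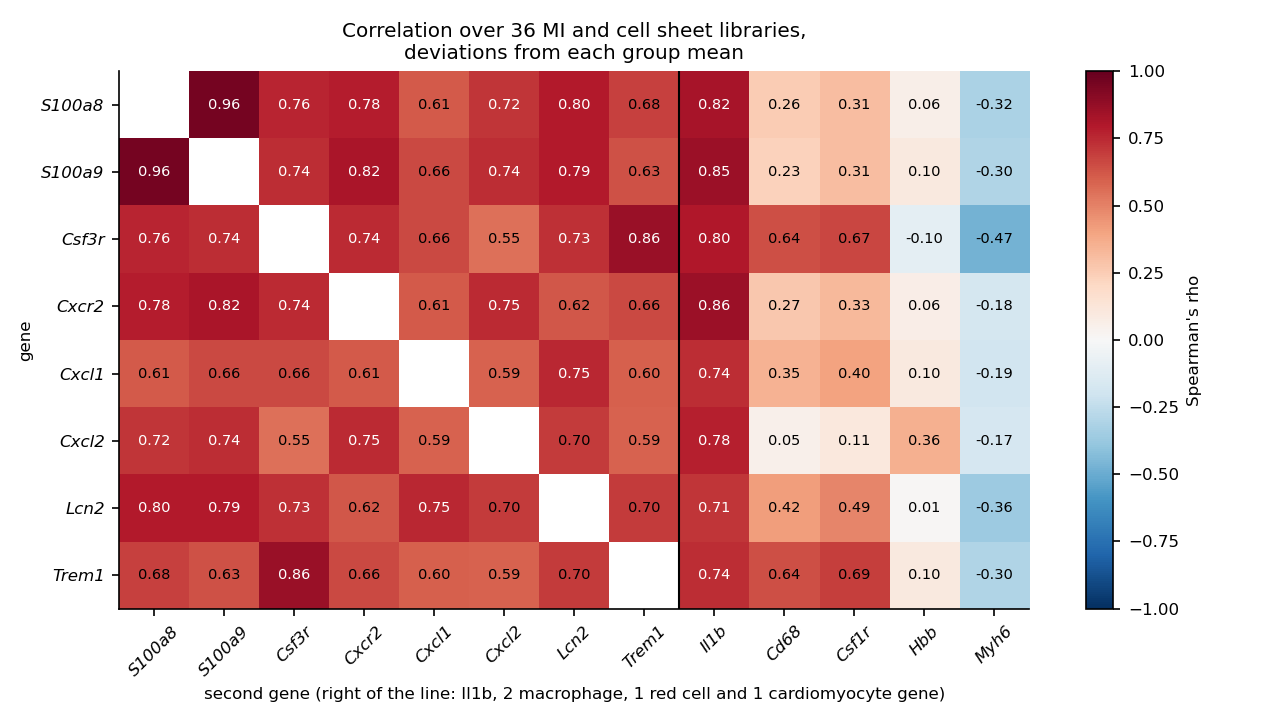
Spearman's rho between the 8 genes and with Il1b, Cd68, Csf1r, Hbb and Myh6, over 36 libraries of MI and cell sheet-treated hearts (3 to a heart), as deviations from group means. S100a8 with S100a9 is at 0.955, and Cd68 with Cxcl2 is at 0.048.

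The gene outside the 8 most like each of them was then sought among 13285 genes by the same measure over all 54 libraries, and the value over the 36 libraries is given after it. Nearest to Csf3r was Socs3 (rho 0.836 and 0.897), an inhibitor of cytokine receptor signalling. Nearest to Trem1 was Il1rn (0.864 and 0.881), which encodes the interleukin-1 receptor antagonist. Nearest to Cxcl1 was Cebpb (0.769 and 0.802), a transcription factor of the acute-phase response, and nearest to Cxcl2 was Nos2 (0.760 and 0.901), the inducible nitric oxide synthase. Bmper, a BMP-binding protein gene, was nearest to Lcn2 (0.759 and 0.833) and Rasl12 was nearest to S100a9 (0.692 and 0.645). Pmaip1 was nearest to Cxcr2 (0.779 and 0.771), and Ifit1bl was nearest to S100a8 (0.671 and 0.829) and among the 3 nearest to Cxcr2 (0.731 and 0.843).

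The genes around these 8 in the same pathways were followed as lists. Among all genes tested, 22.7%, 18.4% and 11.7% were called higher in the infarct, border and remote zones of MI hearts. Of 9 secondary and tertiary granule genes, 4 of the 5 tested were higher in MI than sham hearts in infarct and 4 of 5 in border tissue, among them Mmp9, the gelatinase (5.45, SE 1.15, border zone), and Hp, haptoglobin (2.39, SE 0.57, border zone). For the remote zone it was 1 of 4, Pglyrp1. None of the 4 primary granule genes passed the filter in any comparison. Of myeloid surface receptors and their adaptor, 6 of 12, 6 of 12 and 5 of 11 genes tested were higher in the 3 zones, among them the decoy receptor Il1r2 (5.59, SE 0.98, border zone; 3.95, SE 0.94, remote zone) and Mcemp1 (5.09, SE 1.23, border zone). Among other chemoattractants, Cxcl6 was higher by 6.53 (SE 0.76) in the infarct and 8.18 (SE 1.63) in the border zone, and 4 of 5, 3 of 4 and 1 of 3 genes tested were higher, while Cxcl12 was lower in the remote zone (-0.48, SE 0.16).

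Of other S100 and alarmin genes, 7 of 10, 9 of 11 and 5 of 11 genes tested were higher in MI hearts, for example Lgals3, galectin-3 (2.77, SE 0.67, infarct zone), S100a4 (1.84, SE 0.62, infarct zone) and Anxa1, annexin A1 (1.34, SE 0.29, remote zone). Of alarmin receptors and their adaptor, 5 of 8, 5 of 8 and 1 of 8 were higher, including Tlr2 (1.99, SE 0.56, infarct zone), Cd14 (1.57, SE 0.38, infarct zone) and Il1rl1, the interleukin-33 receptor (2.56, SE 0.51, infarct zone). The remote zone gene was Il1r1 (1.02, SE 0.12). Among all genes tested 22.7%, 18.4% and 11.7% were called higher in the 3 zones, so 1 of 8 was near the remote share. Bsg, a receptor for S100a9, was called lower in the infarct and border zones and Ager, which encodes RAGE, in the infarct zone. Slc22a17, a receptor for Lcn2, was higher by 0.56 (SE 0.12) in the infarct and 0.34 (SE 0.11) in the border zone.

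Between cell sheet-treated and untreated MI hearts, genes of the lists were called in the remote and border zones. Among all genes tested 17.1% were called and 6.79% were called lower in the remote zone, and 18% and 9.48% in the border zone. In the remote zone 6 of 11 other S100 and alarmin genes were lower in treated hearts, among them Il1b (-2.66, SE 0.68), Il1a (-2.52, SE 0.69) and S100a11 (-1.35, SE 0.31). Of the surface receptors 3 of 11 were lower, among them Clec4e (-2.87, SE 0.83) and Il1r2 (-2.83, SE 0.72). Tlr4 (-0.86, SE 0.19) and Il1r1 (-0.70, SE 0.21) were the 2 of 8 alarmin receptor genes that were lower, and Slc22a17 was higher (0.60, SE 0.13). In the border zone Il1a (-3.44, SE 1.05) and S100a4 (-1.05, SE 0.22) were lower among alarmin genes, Trem2 (-1.05, SE 0.28) and Tyrobp, the adaptor of Trem1 and Trem2 (-1.12, SE 0.34), among surface receptor genes, and Lyz2, lysozyme (-1.40, SE 0.32), among granule genes. The oxidase subunit Cyba (-1.0, SE 0.31) and the chemokine receptor Cxcr4 (-0.68, SE 0.17) were also lower there, and no alarmin receptor gene was. In the infarct zone edgeR called 0 genes of each list.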

How the data were processed

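RNA-seq of 54 libraries was used as deposited: the authors aligned paired-end reads with STAR to the rat build mRatBN7.2 and deposited raw counts per gene, 1 table per library. The counting tool and its strand setting are not given in the sources used here. The 5 summary entries of each table, 17.0 to 42.8% of all counts, entered neither library sizes nor tests. Counts were tested with edgeR 4.0.16 (quasi-likelihood F test, TMM scaling, filterByExpr) in R 4.3.3, for each zone and pair of treatments, with p-values adjusted over all genes tested by the Benjamini-Hochberg method at a threshold of 0.05. Fits between zones had the animal as a block, with libraries of the same number in a treatment group taken as the same heart. The labels do not state this link. Over genes, deviations from group means in infarct and border libraries were correlated with those of the remote library of the same number. The median correlations were 0.46 and 0.56 in sham, 0.24 and 0.028 in MI, and 0.27 and 0.33 in cell sheet-treated hearts. Levels are TMM-scaled CPM. Within groups, 135 pairs of libraries were compared and 0 were identical.

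Alternatives were DESeq2 1.42.0, no filter, a stricter filter (10 counts), no TMM scaling, a joint fit of all libraries, the replicate number as a block, and leaving out each heart. Leaving out sham animal 5 and cell sheet animal 1 together was chosen after seeing the data. The 8 genes and the gene lists around them were chosen with earlier results of these data known. Genes named from a list are at most the 3 with the largest change among those called whose mean log2 CPM reached 1, and groups of up to 5 are named in full. The script was tested on simulated data. Levels of different genes were not compared, since gene lengths were not used here.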

Additional observations from a re-analysis of the deposited data

Results flagged for a closer look

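In 72 groups of 6 libraries (8 genes, 9 groups), 7 held a value far from the other 5 by Dixon's criterion, and chance gives about 1 in 20. Of these, 5 were from sham animal 5. Its Csf3r was 11.6 CPM in the border position, against 0.791 to 1.87 CPM in the other hearts, and 9.42 CPM in the remote position, against 0.886 to 1.60 CPM. Its Trem1 was 12.6 CPM in the infarct position (others 0.461 to 1.64 CPM), 11.8 CPM in the border position (others 0.312 to 1.11 CPM) and 9.19 CPM in the remote position (others 0.405 to 0.920 CPM).

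The other 2 were low values. Cxcl1 was 1.03 CPM in the remote position of sham animal 1, against 1.84 to 2.26 CPM. Trem1 was 2.46 CPM in the infarct zone of cell sheet animal 6, against 9.26 to 18.1 CPM in the other cell sheet-treated hearts.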

How the results depend on the processing

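Counts of the 8 genes called moved by more than 1.5 times in these cases. Under the stricter filter, 2 and 4 genes were called in MI against sham (infarct and border zones), 2 in cell sheet against MI in the remote zone, and 3 in cell sheet against sham in the infarct zone, where only 3 or 4 of the 8 were still tested. For cell sheet against MI in the border zone the count was 2 with DESeq2, where 3945 of all 16272 genes were called. The count there was 4 in the joint fit of all libraries, and 0 with no filter, with the stricter filter, without TMM scaling or with the replicate block. For cell sheet against MI in the remote zone it was 1 (Lcn2) with the replicate block. Replicate numbers of different treatments are different rats, whose deviations had correlations from -0.80 to 0.67, so the block pairs nothing across treatments. For cell sheet against sham in the border zone the count was 4 with DESeq2, where 7811 of all 15960 genes were called, and 5 in the joint fit. Between zones, DESeq2 gave 2 in MI hearts (border against remote), 6 in cell sheet-treated hearts (border against remote) and 1 in sham hearts. Over all genes it called 4651 of 15738, 9491 of 15904 and 4565 of 15077 in these contrasts. Fits with no replicate block gave 1 in MI hearts for each contrast and 0 in sham hearts. DESeq2 gave 6 for the cell sheet effect and 2 for the MI effect (infarct minus remote), where it called 1802 of 16902 and 5451 of 16445 of all genes. The share of all genes called under the other settings is not given here, so those counts were not weighed against it.

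Over fits that left out 1 heart the counts ran from 0 to 2 and from 2 to 6 for cell sheet against MI in the border and remote zones, and from 5 to 8 and from 1 to 3 for cell sheet against sham in the infarct and border zones. Among all genes 11.8 to 18.8% and 7.04 to 41.6% were called in the first 2, and 50.3 to 70% and 35.9 to 61.6% in the last 2. They ran from 4 to 7, from 5 to 8 and from 3 to 6 for MI against sham in the infarct, border and remote zones, where 42.2 to 64.8%, 31.7 to 60.8% and 17.8 to 46.5% of all genes were called. Between zones they ran from 0 to 2 in MI hearts (infarct against remote), 2 to 5 in cell sheet-treated hearts (border against remote) and 1 to 2 in sham hearts, and from 0 to 7 and 0 to 2 for the cell sheet and MI effects (infarct minus remote). In the same order, 20.3 to 37.2%, 41.5 to 57.2%, 25.6 to 31.2%, 0 to 11.8% and 21.9 to 34.5% of all genes were called. The cause of these shifts was not tested.

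Over all refits of the 122 single-gene results, 1663 values kept their direction and side of the threshold, 64 moved past it, 106 lost it and 34 changed sign, none of these 34 from a result past the threshold in the reported fit. For the results with a changed sign, the log2 values over fits without 1 heart ran as follows. For cell sheet against MI in the infarct zone they ran from -0.32 to 0.77 for S100a9, from -0.90 to 1.90 for Cxcl2 and from -0.072 to 0.33 for Trem1, each lowest without cell sheet animal 2. For cell sheet against sham in the remote zone they ran from -0.61 to 1.29 for Csf3r and from -1.27 to 1.09 for Trem1, which was 0.16 with the replicate block and 0.36 without both hearts that stood apart. Infarct against remote in MI hearts gave -0.14 to 0.32 for Lcn2 (-0.017 with no replicate block) and -0.12 to 0.55 for S100a8, and border against remote gave -0.29 to 1.18 for Cxcr2. Csf3r ran from -0.16 to 0.20 in sham hearts (0.0855 with no replicate block). The cell sheet effect, border minus remote, ran from -0.56 to 0.82 for S100a8, from -0.40 to 0.69 for S100a9 and from -0.78 to 0.15 for Cxcl1. The MI effect, infarct minus remote, ran from -0.16 to 0.39 for Trem1 (-0.079 with no replicate block) and from -0.066 to 0.40 for Cxcl1. Low counts, as for Cxcl2 in sham hearts (1 to 14 counts per library), limit the fold changes.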

Other observations

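Mpo, the myeloperoxidase gene, was at or near 0 in most libraries and was under the filter in every comparison, so it has no test here. In border tissue of treated hearts it was detected in 5 of 6 animals, at a median of 6.64 CPM and at most 12.6 CPM in animal 6. In untreated MI border zones it was at 0 in 4 of 6 animals and at most 1.00 CPM, and in sham border positions it was at 0 in all 6. The other primary granule genes were lower in counts there, with at most 41 counts of Elane, 34 of Prtn3 and 50 of Ctsg in a cell sheet-treated border library. In the same comparison 3 of 6 mast cell markers (Cpa3, Kit and Tpsab1) and 2 of 5 adipocyte markers (Plin1 and Cidec) were higher in treated hearts by edgeR, and their part in the Mpo values was not tested.

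Among subunits of the phagocyte oxidase, Cybb was higher in MI than sham hearts in the infarct zone by 1.89 (SE 0.73) on the log2 scale. Ncf1 went the other way in the remote zone of MI hearts (-0.58, SE 0.16). Cxcl6 and Cxcl3, both chemoattractants of neutrophils, were higher by 8.37 (SE 1.14) and 5.88 (SE 1.38) in cell sheet-treated than sham hearts in the infarct zone, and S100b was higher in their border zone (2.96, SE 0.62).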
